A study of Mus musculus with 28 samples.

Results

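Interferon-responding T cells were picked out among CD8+ lymphocytes sorted from mouse tumours, as the cells that carried RNA of a few genes switched on by interferon. A cell was taken when it held at least 1 unique molecular identifier (UMI, a tag that counts 1 captured RNA molecule) over Cd3d, Cd3e and Cd3g, which encode the signalling chains of the T cell receptor. It also had to hold at least 4 UMIs summed over Ifit1, Ifit3, Ifit3b, Rsad2 and Cmpk2, called the 5 rule genes here. The rule took 620 of 5374 CD3-positive cells, from a table of 5471 cells in all. Because measured values chose these cells, every level within them is a description and carries no test.

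The mice were wild-type C57BL/6 animals bearing MC38-OVA, a colon carcinoma line that expresses ovalbumin. They received antibodies against PD-1 and Tim-3, inhibitory receptors of T cells (blockade), or isotype control antibodies, and tumours were taken on day 12. The cells studied were CD8+ tumour-infiltrating lymphocytes that stained for neither receptor (Tim-3-PD-1-). Each treatment gave 1 droplet-based single-cell library and 3 bulk libraries of this sorted population, and 6 bulk libraries of Tim-3+PD-1+ cells under the same 2 treatments shared the bulk model's estimate of spread. No label says whether libraries came from separate mice or from pools, so a p-value here measures the spread between libraries only. With 1 single-cell library per treatment, a difference between the treatments cannot be told apart from a difference between 2 libraries. The single-cell table marks its cells with the numbers 1 and 2 and the sample labels carry the codes S1 (isotype) and S2 (blockade); cells were assigned by that number, a match that no source states.

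Type I interferons signal through the receptor chains Ifnar1 and Ifnar2 and the kinases Jak1 and Tyk2 to a transcription factor complex that includes Stat2 and Irf9 and binds a DNA element with a doubled GAAA core in front of its target genes. Interferon gamma, made by activated T cells themselves, signals through Ifngr1 and Ifngr2 and overlaps in its targets. The induced genes encode proteins that bind viral RNA (the Ifit family), make a chain-terminating nucleotide (Rsad2, viperin), modify other proteins with the ubiquitin-like Isg15, or feed back on the pathway (Usp18). In CD8+ T cells interferon is known both to support effector differentiation and to raise inhibitory ligands in the tumour.

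Promoter sequences of the 4 rule genes in which the element was found are shown with Isg15 and Cxcl10, because the same letters recur in front of genes that the cells share. Isg15 and Cxcl10 were picked after the search, and the windows of Irf7 and Oasl1, also searched one by one, held no match. Windows ran from 250 bases before to 50 bases after each start in RefSeq's mouse annotation (GRCm38.p6). The motif searched was GAAA, any 2 bases and GAAA again, on both strands, so that it can also read TTTC, any 2 bases and TTTC, and overlapping matches were counted. Each stretch reads 5′ to 3′ on its gene's strand and the capitals mark the matches.
Ifit1 (chr19:34640773-34640825, plus strand): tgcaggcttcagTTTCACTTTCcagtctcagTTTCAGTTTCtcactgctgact
Ifit3 (chr19:34583361-34583428, plus strand): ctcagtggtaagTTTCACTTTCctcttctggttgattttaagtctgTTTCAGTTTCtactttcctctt
Ifit3b (chr19:34607757-34607824, plus strand): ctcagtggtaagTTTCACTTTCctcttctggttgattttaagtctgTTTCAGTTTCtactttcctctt
Rsad2 (chr12:26456551-26456584, minus strand): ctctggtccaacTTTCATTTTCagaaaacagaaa
Isg15 (chr4:156200863-156200908, minus strand): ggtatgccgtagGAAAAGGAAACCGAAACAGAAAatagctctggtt
Cxcl10 (chr5:92349081-92349114, minus strand): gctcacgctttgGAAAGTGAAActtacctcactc

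All of these stretches lie upstream of the first exon, with the last match ending 75 bases before the start of Ifit1, 112 before Ifit3, 144 before Ifit3b, 110 before Rsad2, 56 before Isg15 and 203 before Cxcl10. The Ifit3 and Ifit3b stretches are letter for letter the same, and counts of these near-identical gene copies may have been split between them. Isg15 has 3 overlapping matches in a single run. The window of Cmpk2 held no match, so 4 of 5 rule genes had one (80.0%). Among 118 other genes of the interferon lists, 82 had a window and 38 of those held the motif (46.3%), against 3.99% of all 27025 genes with a window. A match describes the letters only.

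The single-cell libraries were of like depth, with 12443325 UMIs in the isotype and 12430246 in the blockade library. Members had a median of 3773 UMIs in the isotype and 3655.5 in the blockade library, beside 3643 and 3852.5 in the other CD3-positive cells. A Cd8a or Cd8b1 UMI was present in 115 of 120 isotype members and 482 of 500 blockade members, as in 94.7% and 93.0% of the other CD3-positive cells. Markers of other cells were also present: 7 of 120 isotype members and 45 of 500 blockade members held at least 2 UMIs of myeloid, dendritic, B cell, tumour or stroma, or blood markers. Those 45 cells, 10 of them with more than 40000 UMIs, supplied 34% of all UMIs of the blockade members, while the 7 isotype cells supplied 7.13%. Levels are given as UMIs per 1000000 UMIs of the cells summed (CPM). The 7 myeloid markers summed to 745.5 CPM in blockade members and 167.2 in the other blockade cells, with none of the 7 at 0, and to 23.3 and 8.0 in the isotype library, where 6 of 7 were at 0 in members. The 5 tumour or stroma markers summed to 507 CPM in blockade and 9.70 in isotype members. The 8 dendritic markers were higher in members of both libraries, at 345.5 against 56.4 CPM in the isotype, where 1 member held 164 of the 178 UMIs, and at 289.6 against 134.0 in the blockade library. Results that these marker-bearing cells changed most are also given without them. Markers of CD4+ T cells and of gamma-delta T or natural killer cells were not part of that count. At least 2 UMIs of the CD4+ T cell markers were held by 1 of 120 isotype and 11 of 500 blockade members. For the gamma-delta T or natural killer markers it was 0 and 6. The libraries shared 7 barcodes, 1 of them a member's.

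Interferon-responding cells made up 4.10% of CD3-positive cells in the isotype library (120 of 2924 cells, 95% interval 3.41 to 4.89%) and 20.4% in the blockade library (500 of 2450, 18.8 to 22.1%). The blockade share was 4.97 times the isotype share. Without marker-bearing cells the shares were 4.10 and 20.1%, a ratio of 4.91. When every cell was thinned to 2000 UMIs, which left out 255 shallower isotype cells and 0 blockade cells, 68 of 2656 isotype cells (2.56%, 1.99 to 3.24%) and 269 of 2410 blockade cells (11.2%, 9.93 to 12.5%) still met the rule. The thinned ratio was 4.36. Of the cells without a CD3 UMI, 1 of 39 in the isotype and 12 of 58 in the blockade library held 4 or more UMIs of the rule genes, a blockade share of 20.7% (11.2 to 33.4%), so cells without CD3 carried these UMIs too.

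**Figure D1:**
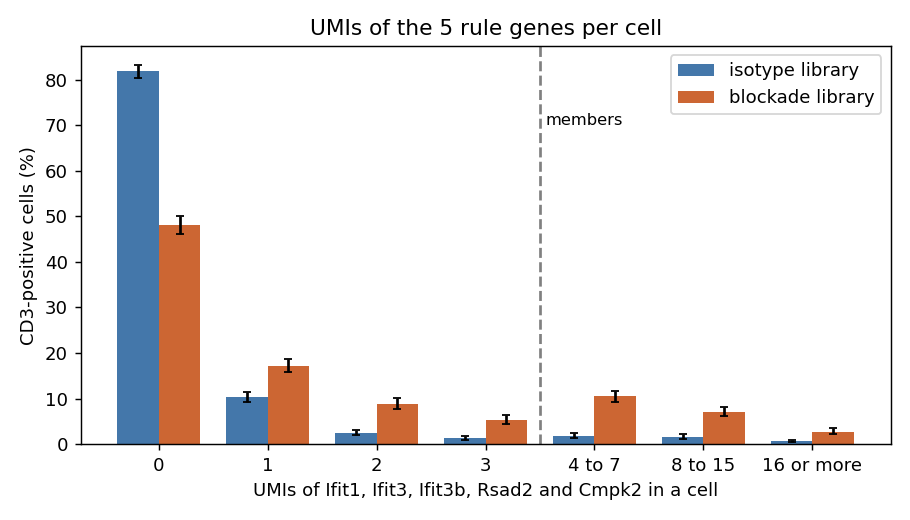
Share of CD3-positive cells (percent, y axis) by UMIs of the 5 rule genes in a cell (x axis) in the isotype (blue) and blockade (orange) library; error bars are exact binomial 95% intervals and the dashed line is the rule's minimum. Cells with 0 UMIs made up 81.8% of the isotype and 48.2% of the blockade library, and each class from 1 UMI upwards was larger in the blockade library.

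The rule cuts a continuous range. Cells with no UMI of the rule genes made up 81.8% of isotype and 48.2% of blockade cells. Cells with 1 to 3 UMIs, outside the rule, were 14.1% against 31.4%. Just outside the rule, 37 isotype and 131 blockade cells held exactly 3 UMIs. Just inside it, 22 and 92 cells held exactly 4. At the upper end, 16 or more UMIs were found in 0.650% of isotype and 2.78% of blockade cells. The plot of rule UMIs per cell shows no gap between members and the rest in either library.

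Within members the rule genes were present in similar proportions in both libraries. Ifit3, an Ifit protein that forms complexes with its relatives, gave 44.9% of the members' rule UMIs in the isotype and 47.0% in the blockade library. Ifit1 itself gave 31.8 and 30.8%, and Ifit3b 11.9 and 10.6%. Rsad2 gave 7.53 and 7.34%, and Cmpk2, a mitochondrial nucleotide kinase that lies beside Rsad2 on chromosome 12, gave 3.89 and 4.27%. A median member held 8 rule UMIs in the isotype (quartiles 5 and 13) and 7 in the blockade library (5 and 12). Most members were positive for several genes: 2 of 120 isotype and 25 of 500 blockade members met the rule on 1 gene alone, while 15 and 36 held all 5. Leaving Ifit3 out of the sum would have dropped 46 isotype and 215 blockade members, the most of any rule gene in either library, and leaving out Rsad2 or Cmpk2 at most 25.

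Outside members the same genes were near the floor, as the rule requires. Ifit1 stood at 763 CPM in isotype members and 13.6 in other isotype cells, and at 565 and 41.3 in the blockade library. Ifit3 stood at 1075 and 23.99, and at 863 and 68.3. In cells outside the rule the blockade library was higher than the isotype library, by log2 ratios of 1.59 for Ifit1 and 1.51 for Ifit3. In members the ratios were -0.44 and -0.32, and -0.07 and 0.05 without marker-bearing cells.

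Genes that took no part in the rule were then compared between members and all other CD3-positive cells of the same library. A gene was counted as higher or lower when its summed level differed at least 2-fold the same way in both libraries, among 9650 genes with at least 20 UMIs in each library. Of these, 159 genes (1.65%) were higher and 49 (0.508%) lower in members. Requiring also that the 95% Poisson intervals lie apart in both libraries left 113 higher (1.17%) and 9 lower (0.0933%). Of 99 tested interferon-stimulated genes outside the rule, 63 were higher and 0 lower, and 61 of the 63 had intervals apart. Their median log2 ratio was 2.12 in the isotype and 1.18 in the blockade library, beside 0.09 and 0.02 over all tested genes. Because the lists were drawn up with earlier results of these data known, and the cells were chosen by genes of the same response, these counts describe the cells and test nothing.

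Isg15, the ubiquitin-like modifier that marks newly made proteins in interferon-treated cells, had the largest ratio of the tested genes of its conjugation pathway. It stood at 1151 CPM (1060 to 1247) in isotype members against 41.4 (37.7 to 45.3) in other cells, a 27.8-fold difference. In the blockade library it stood at 1050 (1012 to 1089) against 155 (147 to 163), or 6.79-fold. An Isg15 UMI was present in 104 of 120 isotype and 449 of 500 blockade members. Usp18, which removes Isg15 from proteins and dampens the type I receptor, stood at 301 against 16.2 CPM, and at 256 against 48.5 under blockade. Of 5 tested genes of the Isg15 conjugation pathway 4 were higher, with Ube2l6, its conjugating enzyme, at 10.3-fold and 3.73-fold and Herc6, its ligase in mice, at 6.10-fold and 2.73-fold. In each of these 4 the members of the 2 libraries were closer to each other, as a ratio, than the non-members were.

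**Figure D2:**
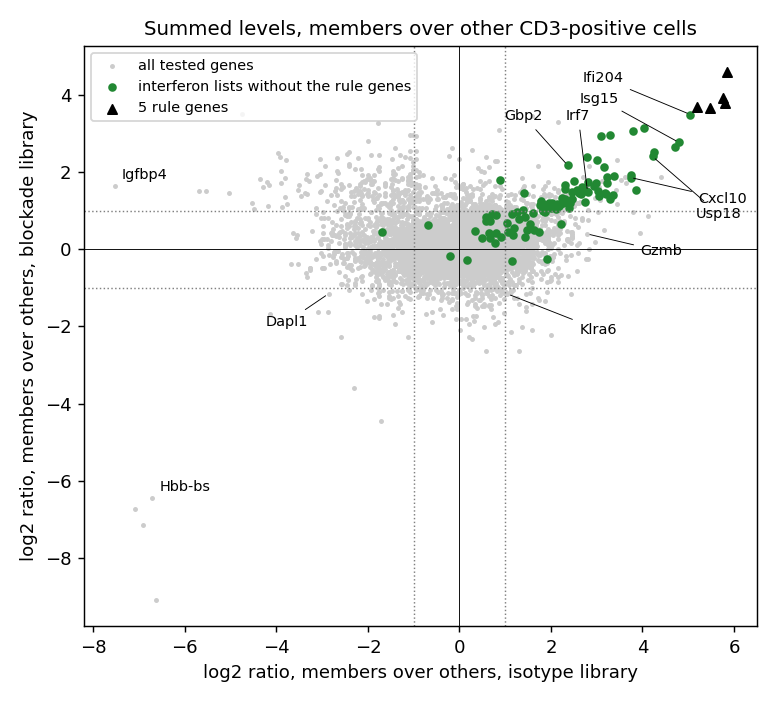
Each point is a gene, placed by its log2 ratio of summed CPM, members over other CD3-positive cells, in the isotype (x axis) and blockade library (y axis); dotted lines mark 2-fold, green points are interferon list genes and triangles the rule genes. Interferon genes fill the upper right corner, where 63 of 99 are at least 2-fold higher in both libraries, and the haemoglobin genes, such as Hbb-bs, sit at the lower left.

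Antiviral effectors were the largest group, with 27 of 39 tested genes higher and 0 lower. Mx1, a GTPase that acts on viral nucleoproteins, stood at 75.7 CPM in isotype members and 2.87 in other cells, and at 58.8 and 9.45 under blockade. Ifit2 was 16.4-fold higher in the isotype and 8.78-fold higher in the blockade library, and Oasl1, a member of the 2-5A synthetase family without enzyme activity, 19.0-fold and 5.77-fold. Rtp4, a receptor chaperone that also blocks viral replication, was 8.33-fold and 2.58-fold higher. More abundant effectors differed less: Zbp1, a sensor of Z-form nucleic acid, stood at 660 against 99.2 and at 649 against 278, and Bst2 (tetherin) at 582 against 168 and at 708 against 326. Ifi27l2a and Ms4a4b did not pass in the blockade library, where their levels in non-members were already 1133 and 2017 CPM and the ratios 1.57 and 1.25.

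Sensors and transcription factors of the pathway were split. Of 10 tested nucleic acid sensing genes 3 were higher, the 3 cytosolic RNA helicases: Ifih1 (Mda5) 13.5-fold and 3.79-fold, Dhx58 (Lgp2) 7.90-fold and 3.30-fold, and Ddx58 (RIG-I) 3.98-fold and 2.10-fold. Of 14 tested transcription factors 3 were higher: Irf7, Stat2 and Irf5. Irf7, the factor that amplifies type I interferon output, stood at 421 against 60.6 CPM in the isotype and 395 against 142 in the blockade library. Stat2 was 7.72-fold and 3.12-fold higher. Irf5 rested on 3 UMIs in isotype members, 5.82 CPM (1.20 to 17.0) against 2.52 (1.69 to 3.62), so its intervals overlapped there, and it missed the threshold in both libraries without marker-bearing cells (log2 ratios of 0.995 and 0.008). Irf9, which binds DNA together with Stat2, missed the threshold in the blockade library, where it stood at 80.6 against 57.4 CPM.

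The interferon-inducible GTPases, which attack vacuoles of intracellular pathogens, were higher in 10 of 13 tested genes. Gbp2 stood at 334 against 64.8 CPM in the isotype library and at 772 against 172 under blockade. The blockade member value was 464 without marker-bearing cells, and 5 cells held 42.4% of the Gbp2 UMIs of all blockade members. Igtp was 5.49-fold and 2.77-fold higher, and Irgm1 4.97-fold and 3.15-fold, with 136 CPM in place of 206 in blockade members once marker-bearing cells were left out. Among the PYHIN and Schlafen genes, DNA sensors and regulators of T cell quiescence, 10 of 11 tested were higher. Ifi204 stood at 40.8 against 1.22 and at 115 against 10.2, the latter 45.1 against 4.06 without marker-bearing cells, and Slfn5 was 8.47-fold and 7.68-fold higher. Slfn2, a gene that keeps T cells quiescent, was 3.34-fold higher in the isotype library and 1.35-fold in the blockade library, short of the threshold. Of 7 tested PARP family genes 6 were higher, Parp9 and its partner Dtx3l by 4.79-fold and 4.32-fold in the isotype and 2.29-fold and 2.09-fold in the blockade library.

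Antigen presentation genes, which interferon also induces, were mostly higher in members, but rarely by 2-fold in both libraries. Of 19 tested class I and processing genes 1 passed, H2-T24, on 2 UMIs in isotype members (3.88 CPM, 0.470 to 14.02). The median log2 ratio of the list was 0.94 in the isotype and 0.42 in the blockade library, and 19 and 16 of the 19 ratios were above 0. B2m, the light chain of class I, stood at 7364 against 4684 CPM and at 8284 against 7027. H2-T22, a non-classical class I gene, was 3.27-fold and 1.81-fold higher and Tap1, the peptide transporter, stood at 326 against 108 and at 283 against 212. Ly6a (Sca-1) passed among 4 Ly6 genes at 5.65-fold and 2.16-fold, and lost the call at 1548 against 781 CPM in the blockade library without marker-bearing cells. Cxcl10, a chemokine that draws Cxcr3-bearing T cells, was the 1 gene of 8 tested chemokines and death ligands that passed. It stood at 243 against 18.3 CPM in the isotype and at 200 against 55.0 in the blockade library. Cxcl10 UMIs were found in 32 of 120 isotype members, with 47.2% of them in 5 cells, and in 124 of 500 blockade members.

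The receptors and the ligands themselves did not follow in both libraries. None of 8 tested receptor and kinase genes passed in either direction, and their median log2 ratio was 0.38 in the isotype and -0.11 in the blockade library. Those medians were 0.23 and 0.098 without marker-bearing cells. Without marker-bearing cells Ifngr2 was lower in both libraries, at 2.09 against 20.4 and at 0.55 against 3.67 CPM, with 1 UMI in the members of each. Ifnar1 stood at 87.3 against 60.1 CPM in the isotype and at 61.7 against 66.2 in the blockade library. Ifngr1 stood at 1025 against 438 and at 849 against 928. In isotype cells without other-cell markers Ifngr1 stood at 432 with 0 rule UMIs, 1136 with 4 to 7 and 830 with 16 or more. Of 9 tested feedback genes 0 passed. Of 20 interferon genes in the table, 19 encode type I or type III interferons: their only UMI in CD3-positive cells was 1 of Ifnab in an isotype non-member, so that no member of either library held one. Over the 515235 UMIs of isotype and 2755196 UMIs of blockade members, RNA of these ligands was not detectable at this depth. Ifng, the type II interferon, stood at 171 CPM (137 to 210) in isotype members against 104 (98.2 to 110) in other cells, and at 195 (179 to 212) against 233 (223 to 243) under blockade. Without marker-bearing cells its log2 ratio was 0.64 in the isotype and 0.075 in the blockade library, so the lower blockade level was gone.

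Levels were graded across the cells, on both sides of the rule's minimum. Marker-bearing cells were left out for this description. Isg15 in isotype cells with 0, 1 and 2 to 3 rule UMIs stood at 28.4, 73.8 and 297 CPM, and in members with 4 to 7, 8 to 15 and 16 or more at 513, 1258 and 2323. In blockade cells the series read 89.6, 169, 356, 765, 1423 and 2549. The summed level of all interferon list genes outside the rule ran from 5540 to 29920 CPM in the isotype and from 10070 to 37970 in the blockade library. At an equal number of rule UMIs the blockade cells stood higher in that sum in every class. As a ratio the distance in the sum was widest among cells with 0 rule UMIs. It was narrowest at 8 to 15, with 23150 in the isotype and 26340 in the blockade library, and wider again at 16 or more, where the intervals of 28760 to 31120 and 37170 to 38780 lay apart. Isg15 alone stood at 28.4 (24.98 to 32.2) and 89.6 (81.2 to 98.6) with 0 rule UMIs, while at 16 or more its intervals of 2007 to 2675 and 2345 to 2766 overlapped.

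**Figure D3:**
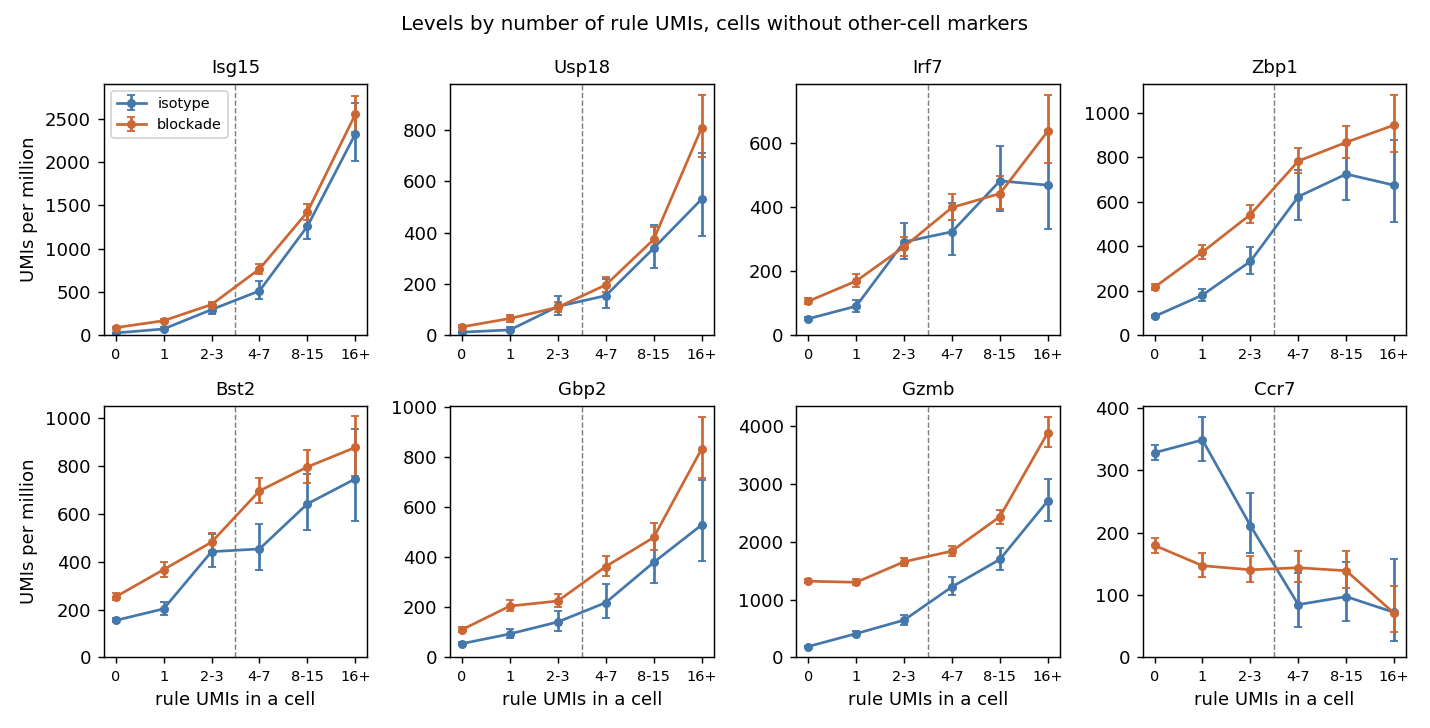
Summed CPM (y axes) of 8 genes by rule UMIs in a cell (x axes), isotype in blue and blockade in orange, cells without markers of other cell types; error bars are exact Poisson 95% intervals and the dashed line is the rule's minimum. Isg15 runs from 28.4 to 2323 in the isotype and from 89.6 to 2549 in the blockade library, Gzmb starts at 189 against 1318, and Ccr7 is lower on the right in both.

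Of the 159 higher genes 91 lay outside the interferon lists, and 47 of the 113 with intervals apart did. They were 91 of 9546 tested genes outside the lists. Among the 47, those named here were picked after their values were seen. They included Ifit1bl1, an uncharacterised Ifit relative, at 182 against 14.8 and 141 against 42.9 CPM. Daxx, a histone chaperone of nuclear bodies, stood at 221 against 39.9 and at 150 against 53.4. Rnf213, a large ubiquitin ligase, stood at 69.9 against 19.8 and at 93.6 against 31.9. Trim30c, Gm12185, Znfx1, Apobec1 and Mlkl, the executioner of necroptosis, belonged to the same group at lower levels, each between 14.5 and 25.04 CPM in members of either library. Without marker-bearing cells Apobec1 stood at 11 against 3.14 and Mlkl at 8.25 against 3.40 CPM in the blockade library. Il18bp, a secreted inhibitor of IL-18, stood at 11.7 against 1.74 and at 38.5 against 8.70 (21.45 against 4.98 without marker-bearing cells), and Cd274 (PD-L1), from the list of inhibitory receptors and ligands, at 48.5 against 8.69 and at 63.2 against 26.2.

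Of the 9 genes that were lower with intervals apart, 4 were haemoglobin genes. Hbb-bs stood at 7.76 CPM in isotype members and 919 in other cells, and the difference was gone without marker-bearing cells (log2 ratio of 0.19). The other 5 were Ccr9, Fam101b, Mdn1, Dtx1 and Dapl1. Dapl1, a gene of naive and central memory CD8+ T cells, stood at 56.3 against 415 in the isotype library and at 33.4 against 74.6 in the blockade library. Fam101b stood at 9.70 against 35.8 and at 4.36 against 15.04, and Dtx1, a Notch pathway ligase, at 15.5 against 41.9 and at 6.90 against 16.3. Without marker-bearing cells the blockade log2 ratios of Dapl1 (-0.89) and Dtx1 (-0.79) fell short of 2-fold. Ccr9, a gut homing receptor of naive CD8+ cells, was low throughout, with 3 UMIs in isotype and 7 in blockade members (5.82 CPM, 1.20 to 17.0, and 2.54, 1.02 to 5.24). Mdn1 had 0 UMIs in isotype members, which allows up to 7.16 CPM.

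Of 15 tested naive and homing genes 2 were lower and 0 higher, beside 0.508% lower among all tested genes. The ratio was above 0 on the log2 scale for 1 of 15 in the isotype and 2 of 15 in the blockade library, beside 5431 and 5101 of all 9650 genes, and the median log2 ratio was -0.84 and -0.45. Klf2, which keeps lymphocytes recirculating, stood at 1425 against 2551 CPM and at 798 against 1163. Lef1 stood at 93.2 against 227 and at 65.3 against 120. Ccr7 stood at 161 against 309 in the isotype library and at 114 against 150 in the blockade library, and the isotype member level was 87.8 without marker-bearing cells.

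Effector genes had larger ratios of members over other cells in the isotype than in the blockade library, a difference that 1 library per treatment does not allow to be tested. Gzmb (granzyme B) stood at 1557 CPM in isotype members and 227 in other isotype cells, a 6.85-fold difference, and at 1698 against 1287 under blockade, 1.32-fold (2307 against 1373 without marker-bearing cells). Among blockade cells without those markers Gzmb was graded as well, from 1318 CPM at 0 rule UMIs to 1839, 2433 and 3887 in members with 4 to 7, 8 to 15 and 16 or more. UMIs of Gzmb were spread over 79 of 120 isotype and 399 of 500 blockade members. The 12 cytotoxic genes had a median log2 ratio of 0.94 in the isotype and -0.11 in the blockade library, and the 11 terminal effector genes 1.25 and -0.09. Without marker-bearing cells these medians were 0.89 and 0.11 for the cytotoxic and 1.06 and 0.11 for the terminal effector genes. Both blockade medians thus changed sign. Klrk1 (NKG2D) stood at 475.5 against 130 and at 479 against 413, and Cxcr6 at 291 against 74.8 and at 316 against 300. Lag3, an inhibitory receptor, stood at 83.5 against 15.6 and at 73.0 against 80.7. Over all cells, the isotype non-members were the lowest of the 4 groups for each of these genes. None of the cytotoxic or terminal effector genes passed the 2-fold rule in both libraries.

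**Figure D4:**
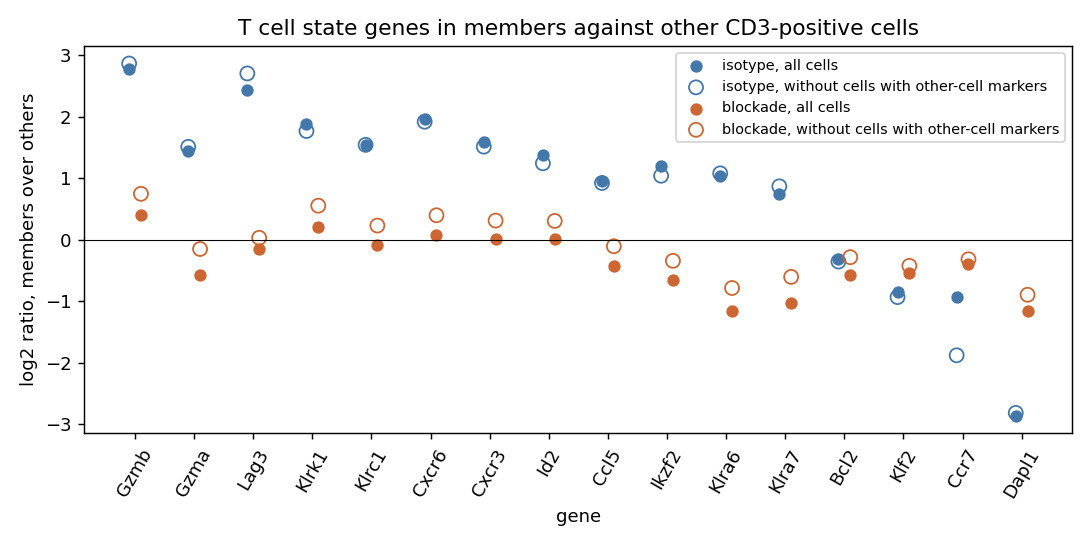
Log2 ratio of summed levels, members over other CD3-positive cells (y axis), for 16 T cell state genes (x axis), in the isotype (blue) and blockade library (orange), with all cells (filled) and without marker-bearing cells (open). Gzmb is 6.85-fold higher in isotype and 1.32-fold in blockade members, while Klra6 and Klra7 have ratios above 1 in the isotype and below 1 in the blockade library.

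A few genes had opposite ratios in the libraries. Klra6 and Klra7, inhibitory Ly49 receptors of the natural killer type whose close copies can share reads, stood at 69.9 against 34.3 and at 134 against 80.8 CPM in the isotype library. In the blockade library they stood at 37.8 against 84.3 and at 77.0 against 157. Ikzf2 (Helios), often found with Ly49 receptors on regulatory-type CD8+ cells, stood at 122 against 53.5 and at 73.0 against 115. These UMIs sat in few cells, which the Poisson intervals do not take into account: the 36 Klra6 UMIs of isotype members came from 15 cells, 63.9% of them from 5, and the 69 Klra7 UMIs from 11 cells. Klra7 did not run evenly with the rule UMIs in either library. In isotype cells it stood at 80.5 CPM with 0 rule UMIs, 84.7 with 4 to 7, 257 with 8 to 15 and 24.1 (2 UMIs, 2.92 to 86.95) with 16 or more. In blockade cells the same classes read 186, 162 and 87.1, and those with 16 or more had 0 UMIs (up to 16.4 CPM).

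Within members, blockade and isotype were compared next. Of 7967 genes with at least 20 UMIs over the members of both libraries, 1149 (14.4%) were at least 2-fold higher and 174 (2.18%) at least 2-fold lower in the blockade library. Without marker-bearing cells 248 of 6426 genes (3.86%) were higher, 144 of them among the 1149, and 131 (2.04%) lower. Igfbp4, for example, stood at 545 CPM in blockade members and 0 in isotype members, and at 3.30 and 0 without those cells. All 1502 Igfbp4 UMIs lay in 15 cells and 82.7% in 5. Lyz2, a lysozyme of macrophages, went from 488 to 3.30 in blockade members in the same way.

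Among cells that met the rule, the median interferon gene differed little between the treatments, although the summed level at equal rule UMIs was higher under blockade, as given above. Of 100 tested genes outside the rule 14 were higher and 2 (Ddx60 and Slfn8) lower under blockade, with a median log2 ratio of -0.09, while the same genes had a median of 0.94 in non-members. Without marker-bearing cells 7 of 95 were higher and 0 lower, and the medians were 0.10 and 0.92. Over all tested genes 14.4% were higher and 2.18% lower with those cells, and 3.86 and 2.04% without. Isg15 had a log2 ratio of -0.13 in members and 1.90 in non-members, and Usp18 -0.24 and 1.58. The rule itself fixes a minimum for their close relatives in both libraries. Ifitm1 and Ifitm2, membrane proteins that bar viral entry, stood apart from the list: Ifitm1 was at 227 CPM (188 to 272) in isotype and 682 (652 to 714) in blockade members, and Ifitm2 at 111 (83.8 to 143) and 525 (498 to 552). Without marker-bearing cells Ifitm1 stood at 221.5 and 671 and Ifitm2 at 98.2 and 322. Non-members differed in the same direction, Ifitm1 from 50.9 to 416 and Ifitm2 from 23.9 to 223 without those cells.

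Other differences between the members of the 2 libraries were small in UMIs. Pdcd1, the gene of PD-1, stood at 35.5 CPM in isotype and 108 in blockade members without marker-bearing cells, although both had been sorted as PD-1-negative. Cells with 0 rule UMIs differed in the same direction, at 10.05 CPM in the isotype and 63.3 in the blockade library. Ahr, a ligand-activated transcription factor, stood at 27.2 in isotype and 6.60 in blockade members. The mitosis genes Birc5, Ube2c and Ccna2 stood at 60.6, 60.6 and 37.6 in isotype and at 18.7, 17.1 and 9.90 in blockade members. Their UMIs came from few cells: 4 of 113 isotype members (3.54%) and 8 of 455 blockade members (1.76%) held at least 2 UMIs of the 3 genes. Among non-members 33 of 2643 isotype (1.25%) and 70 of 1804 blockade cells (3.88%) did, so the order of members and non-members was opposite in the 2 libraries. With marker-bearing cells included, Ube2c turned the other way (58.2 and 125).

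Summed over all CD3-positive cells, members and non-members together, the rule genes were higher in the blockade library by log2 ratios of 1.81 for Ifit1, 1.85 for Ifit3, 1.66 for Ifit3b, 1.70 for Rsad2 and 1.81 for Cmpk2. Isg15 went from 88.9 to 359 CPM (log2 ratio of 2.01). The bulk libraries of the same sorted population took no part in choosing the cells and were replicated. They sum over every sorted cell, with or without CD3, so they do not measure the same mixture. In a pool of cells, more cells with an RNA and more RNA per cell cannot be told apart. Of 12710 genes tested with edgeR's quasi-likelihood test, 142 (1.12%) passed a Benjamini-Hochberg adjusted p of 0.05, 66 (0.519%) higher and 76 (0.598%) lower under blockade. With replicate number as a block, a pairing that the libraries' codes do not bear out, 59 passed. In 825 of the 12710 genes every blockade library lay above every isotype library, and in 1297 every one lay below.

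Ifit1 stood at 90.3, 122 and 179 CPM in the 3 isotype and at 137, 186 and 137 in the 3 blockade libraries. The groups overlapped, and the log2 difference was 0.23 ± 0.23 (SE, 95% interval -0.27 to 0.73, edgeR adjusted p = 0.674). Ifit3 stood at 184.5, 279 and 302 in the isotype and at 303, 395 and 319 in the blockade libraries, just apart, with a log2 difference of 0.41 ± 0.22 (-0.07 to 0.89, edgeR adjusted p = 0.407). Ifit3b stood at 37.1, 56.1 and 53.0 against 73.2, 97.4 and 75.4, with every blockade library above every isotype library. Its log2 difference of 0.75 ± 0.20 had an edgeR adjusted p of 0.0932, and of 0.0362 with the replicate block. Rsad2 (-0.02, edgeR adjusted p = 0.969) and Cmpk2 (0.12, edgeR adjusted p = 0.708) overlapped between the groups. The upper interval bounds of Ifit3b, Rsad2 and Cmpk2 were 1.19, 0.37 and 0.41. For each of the 5 rule genes the upper bound lay below the single-cell ratios of 1.66 to 1.85, which cover CD3-positive cells only. Without the CD3 requirement 4.08% of isotype and 20.4% of blockade cells held at least 4 rule UMIs. The reason for the distance between bulk and single-cell values was not tested.

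**Figure D5:**
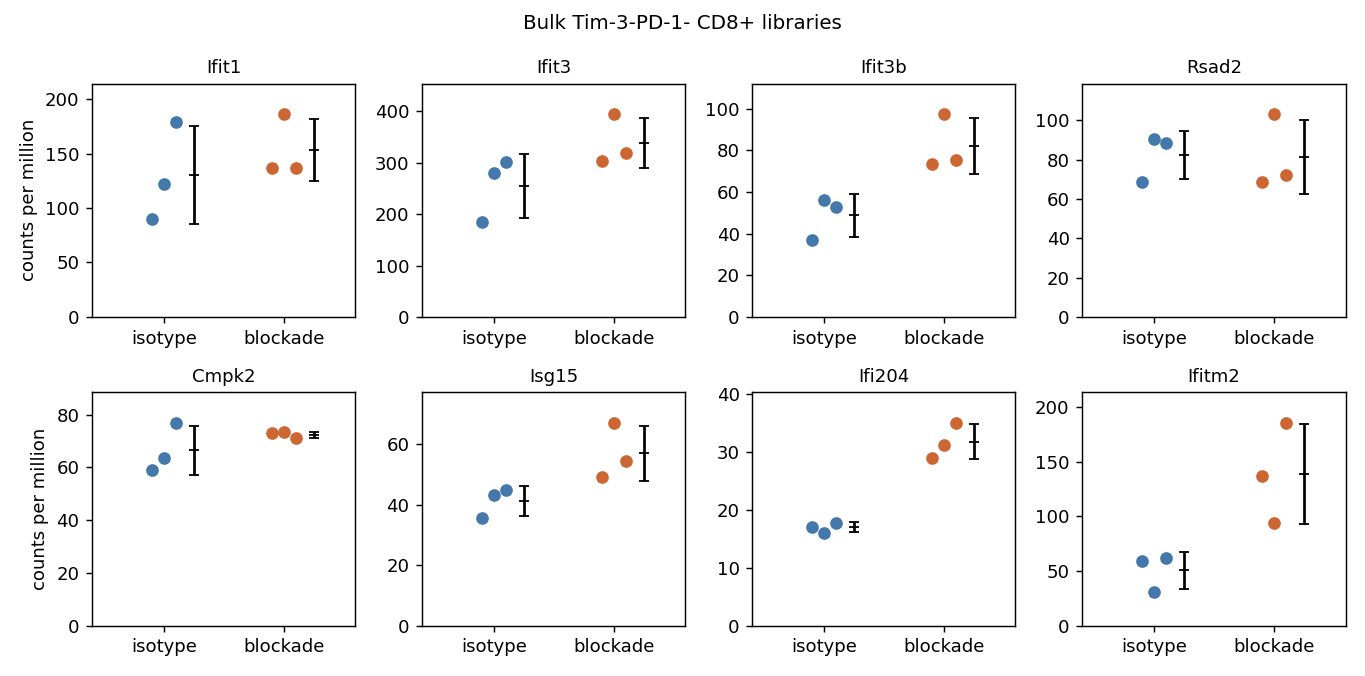
CPM (y axes) of the 5 rule genes, Isg15, Ifi204 and Ifitm2 in each bulk library of Tim-3-PD-1- cells, 3 isotype (blue) and 3 blockade (orange), with mean and SD beside them. Groups overlap for Ifit1, Rsad2 and Cmpk2 and lie apart for the other 5 genes, of which Ifi204 and Ifitm2 passed the test. Of all 12710 tested genes, 825 lay apart upward and 1297 downward.

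Isg15 stood at 35.5, 43.3 and 45.0 CPM in isotype and at 49.3, 67.1 and 54.6 in blockade libraries. The groups did not overlap, but the log2 difference of 0.46 ± 0.19 (0.05 to 0.88) did not pass (edgeR adjusted p = 0.264). Of 116 tested interferon-stimulated genes outside the rule 2 passed, both higher under blockade, against the 0.519% of all genes. Ifi204 stood at 17.1, 16.1 and 17.8 against 29.0, 31.3 and 35.1 CPM, a log2 difference of 0.90 ± 0.18 (edgeR adjusted p = 0.0415, and 0.0788 with the block). Ifitm2 stood at 58.8, 31.1 and 62.0 against 136, 94.3 and 185, a log2 difference of 1.45 ± 0.25 (edgeR adjusted p = 0.0249). Across the list 89 of 116 differences were above 0, beside 6216 of all 12710 genes. The median was 0.17, beside -0.01 for all genes. Without blockade replicate 2, 63 of 116 were above 0 and the median was 0.02.

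On the ligand side Ifng rose in the bulk libraries, from 16.4, 20.1 and 19.4 to 28.7, 47.8 and 52.2 CPM (log2 difference 1.20 ± 0.22, edgeR adjusted p = 0.0286, and 0.0564 with the block). On the receptor side Ifngr2 fell, from 83.7, 93.4 and 83.0 to 59.3, 39.98 and 35.2 (log2 difference -0.95 ± 0.20, edgeR adjusted p = 0.0482, and 0.0764 with the block). Jak1 fell by 0.47 on the log2 scale (edgeR adjusted p = 0.0465, and 0.0790 with the block). None of Ifi204, Ifitm2, Ifng, Ifngr2 and Jak1 passed in the 6 Tim-3-PD-1- libraries alone (edgeR adjusted p of 0.141 to 0.194). With 1 library left out, Ifitm2 missed without isotype replicate 1 or blockade replicate 3 (0.0686 and 0.078), and Ifng without isotype replicate 1 or 2 or blockade replicate 2 or 3 (up to 0.111). Ifngr2 passed only without blockade replicate 1, Jak1 only without isotype replicate 3, and Ifi204 in 0 of the 6 such fits (0.0512 to 0.139). Markers of other cells moved beside these values: the 5 blood markers tested summed to between 4188 and 7921 CPM in isotype and between 0.759 and 169 in blockade libraries, and 4 of the 5 passed. The 15 myeloid markers summed to between 226 and 275 in isotype and between 269 and 422 in blockade libraries, and 3 passed. The 7 tumour or stroma markers tested summed to 541, 101 and 633 in isotype and to 1462, 355 and 985 in blockade libraries, and 0 passed. Within each treatment replicate 2 was lowest both in that sum and in Ifitm2. The 13 dendritic markers summed to between 2621 and 3762 in isotype and between 1705 and 2632 in blockade libraries, and 0 passed. The part of these other cells in the bulk results was not tested. This holds for the rule genes and Isg15 as for Ifi204, Ifitm2, Ifng, Ifngr2 and Jak1.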

How the data were processed

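The single-cell table holds UMI counts deposited by the authors for 27933 genes in 5471 cells; the submitters' processing notes name Cell Ranger 1.3 and mm10. The bulk table holds expected counts deposited by the authors (30.5% of values not whole); the notes name TopHat, RSEM, DESeq and mm9, with no role or version. The members and gene lists were chosen with earlier results of these data known. No cell was filtered and no doublet caller was run; cells with at least 2 UMIs of markers of other cell types were left out as an alternative. Levels are sums of UMIs scaled to CPM; their 95% intervals are exact Poisson ones, and log2 ratios had 0.5 UMIs added to each sum; shares have Clopper-Pearson intervals. Intervals and floors cover counting error only, and a count of 0 is given its exact upper limit. For the thinned share, 2000 UMIs were drawn once per cell with a fixed seed, and CD3 was required again.

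Named genes were the rule genes and Isg15, up to 5 members called per interferon list with the largest fold, list members with at least 1000 UMIs, the 15 highest and lowest called genes outside the lists, the 12 highest and lowest genes between libraries with intervals apart, the T cell state genes with the most UMIs in members, and bulk list genes that passed. Other genes named were chosen after their values were seen. Some genes that the rule names are not reported here.

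Expected counts were rounded and fitted with edgeR 4.0.16 (filterByExpr, TMM, group means over 12 libraries of 8005818 to 13579262 counts; limma 3.58.1; R 4.3.3), at a biological coefficient of variation of 0.229. In data simulated for this comparison on 12504 genes, 67% of 2-fold and 95% of 4-fold changes were recovered. Isotype and blockade libraries of Tim-3-PD-1- cells with the same title number shared part of their scatter (pairwise correlation 0.122, 0.384 and 0.184, each over 0.1), so the block was treated as a pairing. No label states it: the libraries' codes are not shared between treatments, and isotype 3 with blockade 1 reached 0.199. Within a treatment each code names a Tim-3-PD-1- and a Tim-3+PD-1+ library, which the fit on group means treated as independent. The title numbers mostly cross these codes, so the block does not follow them. In the bulk table Ifit3b was found as I830012O16Rik, an older name. Alternatives included DESeq2 1.42.0. Promoters came from RefSeq's GRCm38.p6 table.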

Additional observations from a re-analysis of the deposited data

Results flagged for a closer look

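For 5 genes the ratio of members over other CD3-positive cells was above 1 in the isotype and below 1 in the blockade library, with intervals apart in both. The log2 ratios were 0.95 and -0.43 for Ccl5 (a chemokine of effector cells), 1.44 and -0.57 for Gzma (granzyme A), 1.20 and -0.66 for Ikzf2, 1.04 and -1.15 for Klra6, and 0.74 and -1.03 for Klra7. Without marker-bearing cells they were 0.92 and -0.10, 1.51 and -0.15, 1.04 and -0.34, 1.08 and -0.78, and 0.87 and -0.60. The difference between the libraries was not tested, since each treatment has 1 library. The Gzma UMIs of isotype members lay in 32 of 120 cells, with 54.7% of them in 5 cells.

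Cells without a CD3 UMI took no part in the comparisons. In the blockade library 12 of 58 such cells held at least 4 UMIs of the rule genes, beside 1 of 39 in the isotype library.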

How the results depend on the processing

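The share of responding cells in the isotype and blockade library was 5.37 and 25.8% at a minimum of 3 rule UMIs, 2.94 and 14% at 6, and 2.56 and 11.2% after thinning to 2000 UMIs. The median log2 ratio of interferon genes outside the rule stayed between 1.98 and 2.21 in the isotype and between 1.11 and 1.29 in the blockade library over the alternatives run. The 49 genes lower in members were 28 at a minimum of 3, 78 without marker-bearing cells and 21 at a gene minimum of 50 UMIs. The 1149 genes higher in blockade members were 247 without the top 5% of cells by UMIs, 248 without marker-bearing cells and 587 at 50 UMIs, where the 174 lower genes were 49. Ube2c (blockade over isotype in members, 1.08) was -0.52, -1.83 and -0.93 without the top 5% of cells, without marker-bearing cells and as a mean of per-cell levels (chosen after seeing the data), and Iigp1 (1.45) was -0.019 without the top 5% and -0.021 as a mean. Hbb-bs, members over others, was 3.35 in the isotype library at a minimum of 3, 0.19 without marker-bearing cells, and 0.26 in the blockade library with cells between the members' quartiles. Where no value above shows it, the cause was not tested.

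The 142 genes called in bulk were 224 without a filter, 59 with the replicate block, 2 with the 6 Tim-3-PD-1- libraries alone, 541 with DESeq2 and 22 to 229 with 1 library left out. Interferon-stimulated genes called, 2 at first, were 0 in the 6 libraries alone, 6 with DESeq2 and 0 to 1 with 1 library left out. Besides Ifi204, Ifit3b, Ifng, Ifngr2 and Jak1, the block changed no call of a gene named for the bulk libraries. Bulk Rsad2 was 0.0055 in the 6 libraries alone and -0.2264 to 0.0920 with 1 library left out. Depth limits the isotype members most, with 120 cells.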
